A study of Mus musculus with 15 samples.

Results

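The glycosaminoglycan hyaluronan was followed through 8 genes, namely the synthases Has1, Has2 and Has3, the breakdown genes Cemip, Hyal1 and Hyal2, the receptor gene Cd44 and the proteoglycan gene Vcan. They were the rows with these gene symbols in the raw count tables, and all 8 were listed both among the 20910 genes of the cultured mouse RPE (mRPE) table and among the 25038 genes of the RPE/choroid table. All 8 passed the filter on low counts in each comparison. Hyaluronan is a long unbranched sugar chain that the Has enzymes spin out through the plasma membrane from UDP-glucuronic acid and UDP-N-acetylglucosamine. Cemip and the hyaluronidases Hyal1 and Hyal2 take part in cutting it, CD44 binds it at the cell surface, and versican (Vcan) ties it into the pericellular matrix. In the back of the eye hyaluronan is a main component of the vitreous and of the interphotoreceptor matrix between the photoreceptors and the RPE.

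Bulk RNA-seq covered 15 libraries, 9 of mRPE cells and 6 of mouse RPE/choroid. The mRPE cells came from RPE pooled from adult C57BL/6J mice and were immortalized with lentiviral HPV E6/E7. Groups were 4 libraries of WT cells, 3 of the cell line mRPE Prom1KO 22 (KO22) and 2 of the line mRPE Prom1KO 26 (KO26). Each KO group was 1 edited line, made in cells that stably expressed Cas9 with a guide to exon 5 of Prom1. Whether the WT libraries came from cells with Cas9 or a scrambled guide is not given in the sources used here, nor is the age of the mice of the RPE/choroid libraries. The RPE/choroid groups were 3 WT libraries and 3 libraries labelled Prom1-KO, from Prom1 fl/fl mice crossed with RPE65-Cre mice and gavaged with tamoxifen, a design that targets the RPE and leaves the other cells of the tissue with Prom1. Whether WT mice carried Cre or received tamoxifen is likewise not given. Nothing in the labels says that libraries of a group came from separate cultures or animals, so p-values measure the spread between libraries only, which may be technical.

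Total counts were 10187978 to 27537863 per library in WT mRPE cells, 11863633 to 20760399 in KO22, 8076188 and 24175274 in KO26, and 48154444 to 61766179 in RPE/choroid. Replicate 1 of each mRPE group belonged to library series 8995 and the others to series 9262, and the series was a term in each mRPE fit. The study set both KO26 libraries aside as outliers, and they are kept here as a group of their own. Mitochondrially encoded genes took 64.9% to 69.1% of the counts in WT RPE/choroid and 71.0% to 84.2% in the KO libraries. KO replicate 3 stood apart at 84.2%, with the lowest scaling factor, 0.488. Prom1 is not analysed here in the mRPE libraries. In RPE/choroid it averaged 50.5 CPM (TMM-scaled counts, relative to library size) in WT and 44.5 CPM in KO, and its log2 fold change of -0.18 (SE 0.16) did not pass edgeR's quasi-likelihood test (adjusted p = 0.824), so the label could not be checked by its transcript in this mixed tissue. Of 8 RPE marker genes, Rpe65, Rlbp1, Ttr, Lrat and Otx2 were not listed in the mRPE table, and the 3 that were (Best1, Rdh5 and Mitf) summed to 9.81 to 15.1 CPM in WT cells. Of 6 fibroblast markers 5 were listed there, summing to 12804 to 17500 CPM, led by Col1a2. The culture was therefore called mRPE by its label, not by these markers.

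In GRCm39 the synthase genes lie apart, Has1 at chr17:18063585-18075467, Has2 at chr15:56528342-56557999 (both minus strand) and Has3 at chr8:107596874-107611198 (plus strand). Hyal2 (chr9:107445086-107450171) and Hyal1 (chr9:107454126-107458909) are neighbours on the plus strand. Cemip (chr7:83582065-83735724), Cd44 (chr2:102641486-102732010) and Vcan (chr13:89803431-89890814) are on the minus strand. A pair of promoters and the guide are shown because they belong to the edit and to the members that moved farthest in each direction. The guide matched the minus strand of Prom1 exon 5 at chr5:44213310-44213329 (GRCm39), and capitals mark the PAM that follows it in the genome. The promoter windows are the 250 bases upstream of the canonical transcript start in GENCODE vM39 (GRCm39), read on the strand of the gene. Cemip lies on the minus strand with its window at chr7:83735711-83735960, and Vcan on the minus strand with its window at chr13:89890815-89891064. Capitals in both mark every match, on either strand, to 1 of 7 short motifs that are spelled out after the sequences.
Prom1 guide: cgttgctgcaacaaatgcggCGG
Cemip: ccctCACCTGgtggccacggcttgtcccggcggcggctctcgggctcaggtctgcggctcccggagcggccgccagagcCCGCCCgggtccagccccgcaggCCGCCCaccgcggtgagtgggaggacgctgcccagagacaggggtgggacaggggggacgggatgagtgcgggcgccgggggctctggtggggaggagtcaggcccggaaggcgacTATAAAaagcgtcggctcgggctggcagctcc
Vcan: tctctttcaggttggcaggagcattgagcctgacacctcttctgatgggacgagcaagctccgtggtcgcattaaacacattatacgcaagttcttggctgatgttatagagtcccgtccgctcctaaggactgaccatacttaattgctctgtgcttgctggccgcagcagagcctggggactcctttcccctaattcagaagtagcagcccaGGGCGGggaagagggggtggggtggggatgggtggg
The Cemip window had a GC content of 74.8%, at the 97.4 percentile of 21770 protein-coding promoters, and 25 CpG. The Vcan window had 55.6% and 8 CpG, against medians of 53.2% and 8 over all promoters. Cemip was the only one of the 8 promoters with TATAAA, which 11.9% of all promoters held, and with CAGGTG, which 17.7% held. GGGCGG was found in 4 of the 8 (Has2, Cemip, Hyal1 and Vcan; 36.3% of all promoters), CCAAT in 3 (Has1, Has2 and Hyal1; 36.5%) and CATTCC in Hyal2 (12.1%). TGACTCA (4.02% of all) and CACGTG (6.26%) were in none of the 8. These are matches of letters in a window, not binding sites.

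The question for the cultured cells was what differed between WT cells and cells without Prom1, and KO22 was compared with WT first. Cemip transcript was nearly lost in KO22, while Vcan, Cd44 and Hyal2 were several-fold higher, and the synthases were higher by smaller amounts. To be called, a gene had to have an adjusted p below 0.05 together with a log2 fold change above 1.2 or below -1.2. Past both limits, 3 of the 8 genes were higher (Hyal2, Cd44 and Vcan) and 1 was lower (Cemip), where 25.2% of the 20455 genes tested passed, 11.4% higher and 13.8% lower. By the adjusted p alone 6 were higher and 1 lower, against 53.0% of all genes (26.9% higher and 26.1% lower). The median log2 fold change was 0.92 over the 8 genes and -0.03 over all genes tested.

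Cemip, also called KIAA1199 or HYBID, is needed for the uptake and depolymerisation of hyaluronan in fibroblasts. It stood at 214, 314, 382 and 515 CPM in WT replicates 1 to 4, and at 3.29, 2.89 and 3.49 CPM in KO22. In raw counts that is 3890 to 7173 against 38 to 60. All 3 KO22 libraries lay far below the lowest WT library, WT replicate 1 of series 8995. The log2 fold change was -6.72 (SE 0.29), a 106-fold lower level by edgeR's quasi-likelihood test (adjusted p = 4.71e-07), and within the series it was -5.82 (8995) and -6.75 (9262) on log2 of CPM plus 0.5. Its relative Cemip2 (TMEM2), a cell surface hyaluronidase in the mouse, averaged 33.5 CPM in WT and 53.9 CPM in KO22 (log2 fold change 0.69, SE 0.16, adjusted p = 0.00487 by edgeR's quasi-likelihood test), which passed the adjusted p limit alone. Per kilobase of exon, the ratio of Cemip to Cemip2 was 4.2 to 18.6 in WT libraries and 0.0467 to 0.0608 in KO22.

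The plot of CPM by library shows this separation for Cemip and the opposite one for Cd44 and Vcan.

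**Figure D1:**
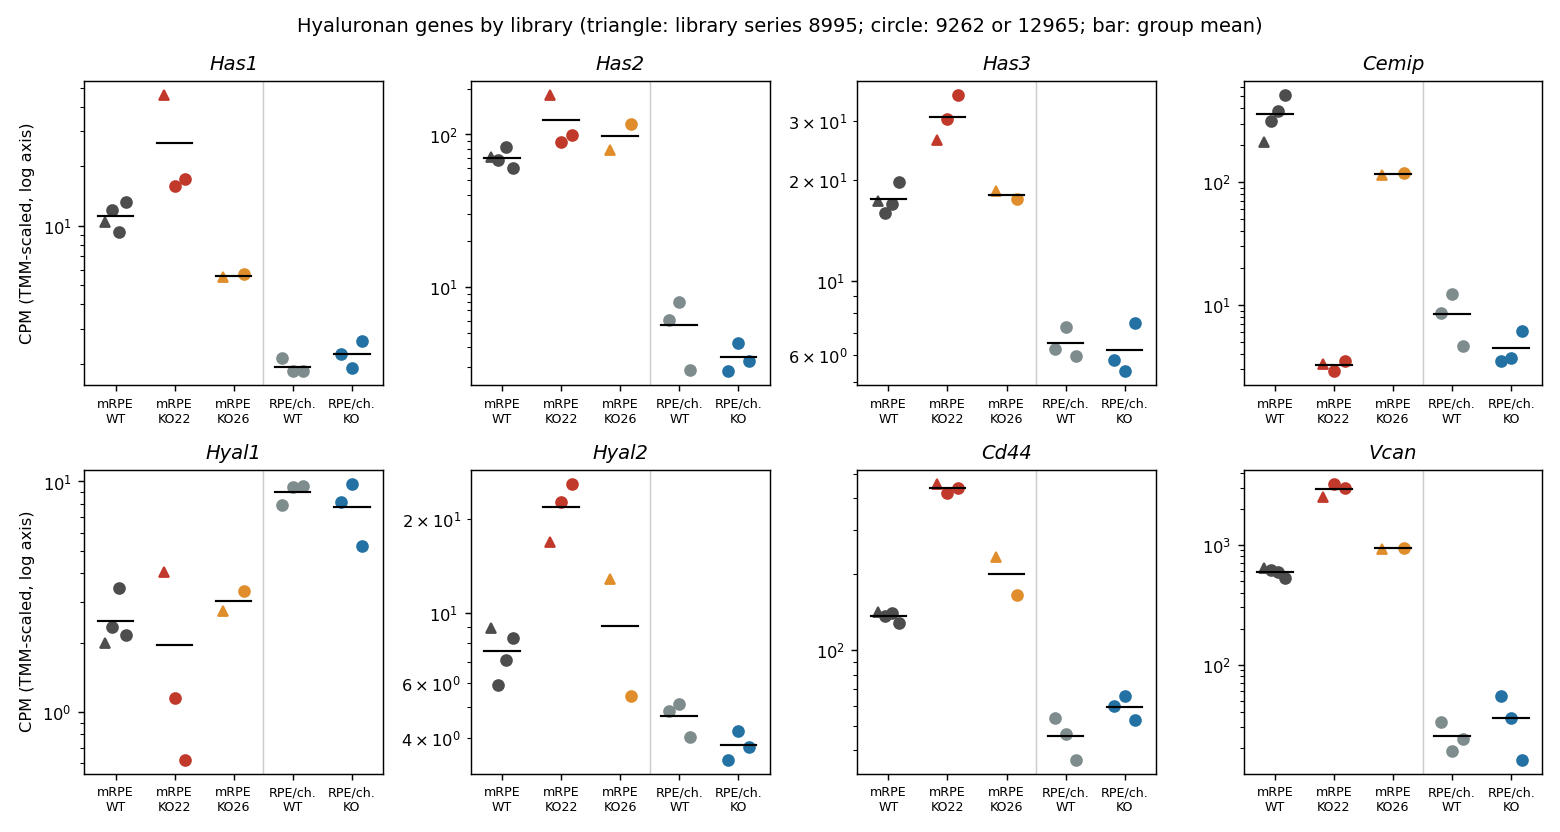
CPM (TMM-scaled, log axis, one scale per panel) of the 8 hyaluronan genes in each of the 15 libraries, by group; triangles are library series 8995, circles series 9262 (mRPE) or 12965 (RPE/choroid), and bars are group means. Cemip in KO22 lies between 2.89 and 3.49 CPM against 214 to 515 CPM in WT mRPE, and KO22 replicate 1 lies above the other KO22 libraries for Has1, Has2 and Hyal1.

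Hyal2, a GPI-anchored hyaluronidase that makes the first large fragments, was at 8.94, 5.9, 7.07 and 8.33 CPM in WT and at 16.9, 22.7 and 25.9 CPM in KO22. The groups did not overlap, and the log2 fold change was 1.52 (SE 0.20; edgeR's quasi-likelihood test, adjusted p = 0.000214). Hyal1, the lysosomal hyaluronidase encoded 3954 bp downstream on chromosome 9, was at 1.99, 2.33, 3.44 and 2.15 CPM in WT and 4.06, 1.16 and 0.621 CPM in KO22. Here KO22 replicate 1 was the highest of the 7 libraries and the other KO22 libraries were the lowest. Over all 7 libraries Hyal1 did not pass the test (log2 fold change -0.60, SE 0.51, edgeR adjusted p = 0.346). Without KO22 replicate 1 its log2 fold change was -1.45 (edgeR adjusted p = 0.00133) and without WT replicate 1 it was -1.47 (edgeR adjusted p = 0.00113), both past the limits. These replicates were the only libraries of their series in this fit, and the series term takes up the one that is left. Both values therefore rest on the other library series alone and are not separate results. Hyal1 rested on 8 to 50 counts per library in these groups, and it shares exon sequence on the same strand with Naa80 (1920 bp) and Hyal3 (1436 bp), so its counts are uncertain.

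CD44 is the principal hyaluronan receptor and anchors to actin through ezrin, radixin and moesin. Cd44 was at 142, 136, 140 and 128 CPM in WT and 458, 419 and 441 CPM in KO22. The spread within each group was small against the gap between them. Its log2 fold change was 1.68 (SE 0.10, 3.2-fold; edgeR's quasi-likelihood test, adjusted p = 2.28e-06), with 1.69 in series 8995 and 1.67 in series 9262. Of the genes for CD44 linkers, sheddases and splicing, 5 of 8 tested were higher and 2 lower by adjusted p alone, against 26.9% and 26.1% of all genes, and none passed both limits, where 25.2% of all genes did. The most abundant, Msn (moesin), averaged 282 CPM in WT and 624 CPM in KO22, with a log2 fold change at 1.14 (SE 0.12; edgeR adjusted p = 6.7e-05).

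Vcan encodes versican, a large chondroitin sulphate proteoglycan whose N-terminal domain binds hyaluronan. It was at 643, 612, 588 and 532 CPM in WT and 2533, 3254 and 3001.5 CPM in KO22. It was the most abundant of the 8 genes in both groups, and its log2 fold change of 2.30 (SE 0.14, 4.93-fold) was the largest rise among them (edgeR's quasi-likelihood test, adjusted p = 2.28e-06). The difference within the series was 1.98 (8995) and 2.44 (9262).

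The synthases differed by less. Has2, the main synthase of the embryo, was at 71.3, 67.7, 82.6 and 60.4 CPM in WT and 182, 89.6 and 99.5 CPM in KO22. Has1 was at 10.4, 11.997, 9.33 and 13.1 CPM in WT and 45.9, 15.8 and 17.1 CPM in KO22. Has3 was at 17.3, 16.0, 17.0 and 19.7 CPM in WT and 26.3, 30.4 and 35.9 CPM in KO22. For all 3 genes each KO22 library was above each WT library, and for Has1 and Has2 KO22 replicate 1, the library of series 8995, stood well above the other KO22 libraries. By edgeR's quasi-likelihood test the log2 fold changes were 1.01 (SE 0.30, adjusted p = 0.0168) for Has1, 0.70 (SE 0.19, adjusted p = 0.0113) for Has2 and 0.82 (SE 0.14, adjusted p = 0.000855) for Has3, none over 1.2. Within series 8995 and 9262 they were 2.09 and 0.51 for Has1, 1.35 and 0.44 for Has2, and 0.59 and 0.90 for Has3. Without KO22 replicate 1, the values were 0.51 for Has1 (edgeR adjusted p = 0.00371) and 0.44 for Has2 (edgeR adjusted p = 0.00108). As for Hyal1, these values rest on series 9262 alone and are not separate results. Has1 passed the fold limit without KO22 replicate 2 (1.21, edgeR adjusted p = 0.023) or with no series term (1.22, edgeR adjusted p = 0.015). Has2 overlaps 400 bp of exon of its antisense RNA Has2os, and the strand setting of the counts is not given in the sources used here. The same limit holds for Has3 (352 bp with Chtf8), Hyal2 (539 bp with Gm9917) and Cd44 (207 bp with Gm57471), where the other gene is also on the opposite strand. Has2os averaged 7.06 CPM in WT and 6.94 CPM in KO22 (log2 fold change -0.10, SE 0.21, edgeR adjusted p = 0.702).

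Of the 8 genes, 6 were higher and 1 lower in KO22 with no overlap between the libraries of the groups, where 50.1% of all genes tested did not overlap (24.8% higher and 25.3% lower). The median log2 fold change in KO22 also differed between chromosomes. It was 0.60 over the tested genes of chromosome 8, which holds Has3, 0.37 on chromosome 15 (Has2), 0.27 on chromosome 9 (Hyal1 and Hyal2), -0.32 on chromosome 7 (Cemip), and between -0.04 and 0.14 on chromosomes 17 (Has1), 13 (Vcan) and 2 (Cd44). The part of these shifts in the values of single genes was not tested. The fibroblast markers summed to 5565 to 8668 CPM in KO22 and 19867 to 21794 CPM in KO26, with 3 of 5 lower past both limits in KO22. For these marker calls in KO22, 13.8% of all genes tested were lower and 11.4% higher past both limits. The 3 endothelial markers listed, led by Kdr, summed to 152 to 235 CPM in WT, 3.26 to 4.53 CPM in KO22 and 55.9 to 73.5 CPM in KO26. Past both limits in KO22, 1 of these 3 was lower and 1 higher, and Cdh5, Tie1 and Emcn were not listed. The 5 mural markers summed to 937 to 1958 CPM in WT and 285 to 381 CPM in KO22, with 3 lower and 1 higher past both limits, and the 3 RPE markers listed to 15.5 to 38.7 CPM in KO22, with 1 higher. Mitochondrially encoded genes took 17.6% to 21.6% of the counts in WT, 14.0% to 16.3% in KO22 and 12.9% to 17.4% in KO26. Their part in the values of the hyaluronan genes was not tested.

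The second line, KO26, was then set against WT in one fit over the 9 mRPE libraries. Cemip was lower there too, at 114 and 120 CPM, below each WT library, with a log2 fold change of -1.46 (SE 0.27, 2.74-fold lower; edgeR's quasi-likelihood test, adjusted p = 0.019). It was the 1 member past both limits, lower, and none was higher, against 1.92% of the 20737 genes tested (1.21% higher and 0.719% lower). By the adjusted p alone Vcan was higher and Cemip lower, against 3.5% of all genes (2.36% higher and 1.13% lower). At an unadjusted p under 0.05, 2 members were higher (Cd44 and Vcan) and 2 lower (Has1 and Cemip), against 20.1% of all genes, and these same 4 genes were the ones that did not overlap WT, against 24.7% (11.9% higher and 12.8% lower). DESeq2 called 0 higher and 1 lower. The median over the 8 genes was 0.18, and 0.03 over all genes. The Cemip call did not hold without KO26 replicate 1 (edgeR adjusted p = 0.0686), KO26 replicate 2 (edgeR adjusted p = 0.0934) or WT replicate 3 (edgeR adjusted p = 0.0633), with log2 fold changes of -1.68, -1.14 and -1.45. Within the series the difference was -0.90 (8995) and -1.72 (9262), with WT replicate 1 the lowest WT library.

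Vcan in KO26 was at 929 and 946 CPM, above each WT library, with a log2 fold change of 0.67 (SE 0.15) that passed the adjusted p limit alone (edgeR's quasi-likelihood test, adjusted p = 0.0402). It no longer passed that limit without KO26 replicate 1 (edgeR adjusted p = 0.205), KO26 replicate 2, WT replicates 2, 3 or 4, or KO22 replicates 2 or 3 (edgeR adjusted p = 0.0576 to 0.14). Cd44 was at 235 and 166 CPM, also above each WT library (log2 fold change 0.49, SE 0.14, edgeR adjusted p = 0.0864). Has1 was at 5.48 and 5.67 CPM, below each WT library (log2 fold change -1.18, SE 0.38, edgeR adjusted p = 0.123). Neither of the last 2 genes passed the test, and without KO22 replicate 1 the edgeR adjusted p of Has1 was 0.00241 at a log2 fold change of -0.98. That library is in neither group compared here and enters through the spread and series term of the shared fit. The lower adjusted p came with a smaller difference and is not a separate result. The other 4 genes overlapped WT. Has2 was at 78.7 and 117 CPM, Has3 at 18.6 and 17.6 CPM, Hyal1 at 2.74 and 3.35 CPM, and Hyal2 at 12.8 and 5.44 CPM. Hyal2 of KO26 replicate 1 was thus above each WT library and that of KO26 replicate 2 below each, and no log2 fold change among these 4 was over 0.44.

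Because an effect in one line and not in the other does not show a difference, KO22 was compared with KO26 in the same fit. Past both limits Has1 (log2 fold change 2.23, SE 0.40), Hyal2 (1.33, SE 0.35) and Vcan (1.63, SE 0.17) were higher in KO22 and Cemip (-5.28, SE 0.30) was lower, against 18.3% of all genes (7.56% higher and 10.7% lower). The edgeR adjusted p values were 0.00171, 0.0142, 7.09e-05 and 1.43e-06. Cd44 (1.18, SE 0.15, edgeR adjusted p = 0.000254) and Has3 (0.74, SE 0.19, edgeR adjusted p = 0.0107) passed the adjusted p limit alone, which made 5 members higher and 1 lower by that limit, against 34.4% of all genes (16.3% higher and 18.1% lower). The same numbers of members did not overlap between the groups, against 47.9% (23.4% higher and 24.6% lower). Hyal2 lost its call without KO22 replicate 3 (log2 fold change 1.19, edgeR adjusted p = 0.034) or KO26 replicate 2 (0.73). Over all settings recomputed between the lines, 3 calls of the 8 genes were lost, including these of Hyal2. Hyal1 gained a call without KO22 replicate 1 (-1.87, edgeR adjusted p = 0.00205). Cd44 gained a call without KO22 replicate 1 (1.25, edgeR adjusted p = 6.29e-06), and its log2 fold change was 1.38 without KO26 replicate 1. Has2 and Hyal1 overlapped between the lines. The comparisons of the lines with WT share the WT libraries, and the values of each stand side by side in the plot of fold changes.

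**Figure D2:**
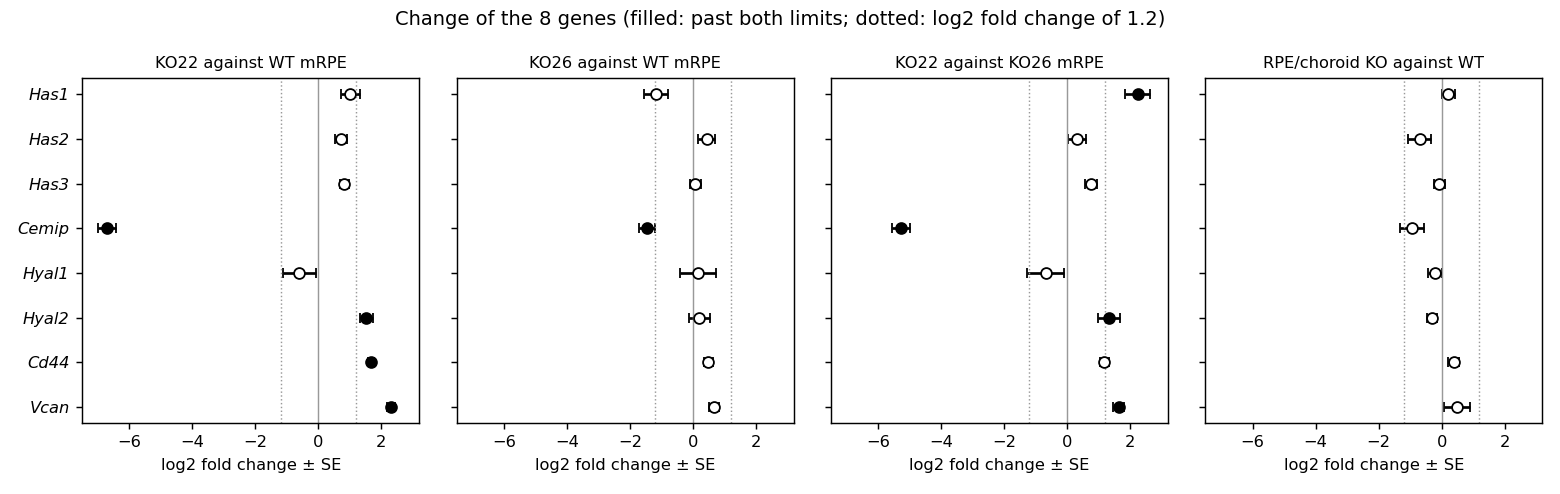
Log2 fold change ± SE (edgeR) of the 8 hyaluronan genes in 4 comparisons; filled points passed both limits (adjusted p below 0.05, log2 fold change beyond 1.2 in either direction), and dotted lines mark the fold limit. Cemip is at -6.72 in KO22 and -1.46 in KO26, and no point is filled for RPE/choroid.

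Per kilobase of exon, the order of the 8 genes in WT mRPE cells was Vcan (35.9 ± 2.85 CPM per kb, SD, n = 4), Cemip (29.1 ± 10.3), Cd44 (20.2 ± 0.900), Has2 (14.1 ± 1.85), Has3 (2.74 ± 0.250), Has1 (2.48 ± 0.373), Hyal2 (1.49 ± 0.266) and Hyal1 (0.656 ± 0.173). Vcan and Cemip overlapped, as did Cemip and Cd44 and as did Has3 and Has1, while the other neighbours in this order did not. In KO22 Cemip moved to the last place (0.263 ± 0.0249 CPM per kb, n = 3), within the range of Hyal1 (0.164 to 1.08). Vcan (177 ± 22.1), Cd44 (64.9 ± 2.87) and Has2 (24.8 ± 10.2) led and did not overlap, and Has1, Has3 and Hyal2 lay between 3.32 and 10.2 with overlapping ranges. In KO26 the order opened with Vcan (56.7 ± 0.701 CPM per kb, n = 2), Cd44 (29.6 ± 7.26), Has2 (19.7 ± 5.45) and Cemip (9.56 ± 0.312).

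Has2 made up most of the synthase transcript of mRPE cells. Of the summed Has1, Has2 and Has3 CPM per kb, its share was 72.8% ± 4.53 in WT (SD, n = 4), 69.4% ± 2.16 in KO22 (n = 3) and 82.4% ± 4.31 in KO26 (n = 2). The summed level was 18.1 to 21.3 CPM per kb in WT, 50.8, 26.2 and 29.4 in KO22 replicates 1 to 3, and 19.9 and 27.5 in KO26. Each KO22 library was above each WT library, by most in replicate 1. Has1 gave 9.69% to 16.0% in WT, 12.9% to 20.0% in KO22, and 4.56% and 6.08% in KO26. In RPE/choroid the shares were more even, with Has3 at 36.2% to 48.8% and Has2 at 29.9% to 50.8% in WT. The tables were scaled separately, so the tissue and the cells were not tested against each other.

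**Figure D3:**
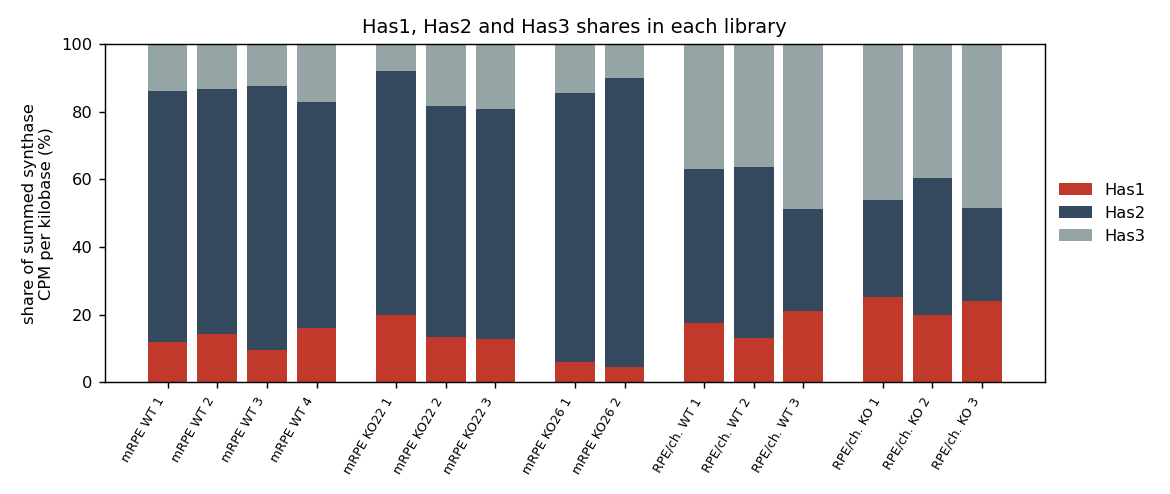
Share (%) of Has1, Has2 and Has3 in the summed CPM per kilobase of the 3 synthases, one bar per library. Has2 takes 66.9% to 85.4% in the 9 mRPE libraries and 27.4% to 50.8% in the 6 RPE/choroid libraries.

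The rest of the pathway was read from a list of 57 genes, of which 44 were tested in mRPE cells. In KO22, 7 were higher and 10 lower past both limits, where 11.4% of all genes tested were higher and 13.8% lower, and the median log2 fold change was 0.23, the same with the genes at or under 3 counts in a whole group (Acan and Lyve1) set at their bounds. Of the 8 precursor genes 3 were higher past both limits and none lower, against 11.4% and 13.8% of all genes, and by adjusted p alone 5 were higher and 1 lower, against 26.9% and 26.1%. Ugdh, which makes UDP-glucuronic acid, was at 71.4, 94.9, 74.5 and 79.6 CPM in WT and 378, 188 and 188 CPM in KO22 (log2 fold change 1.54, SE 0.22, edgeR adjusted p = 0.000332). Without KO22 replicate 1 it was 1.19, and without WT replicate 1 it was 1.17, both under the fold limit. With either left out, the value rests on the library series of the other replicates alone, so these are not separate results. Gfpt2, which opens the hexosamine pathway, and Pgm3, a later step of it, had log2 fold changes of 1.83 (SE 0.28, edgeR adjusted p = 0.000449) and 1.29 (SE 0.10, edgeR adjusted p = 1.08e-05).

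All 6 versican-cleaving ADAMTS genes of the list were lower in KO22 past both limits, where 13.8% of all genes were, with a median log2 fold change of -2.39. For each of the 6 all KO22 libraries lay below all WT libraries, as for 25.3% of all genes. Adamts5, an aggrecanase that also cuts versican, was at 164, 180, 200.1 and 202 CPM in WT and 23.0, 46.1 and 39.0 CPM in KO22 (log2 fold change -2.37, SE 0.15, edgeR adjusted p = 3.61e-06). Adamts15 was at 57.3, 105, 99.9 and 88.2 CPM in WT and 0.951, 3.28 and 4.42 CPM in KO22 (log2 fold change -4.91, SE 0.23, edgeR adjusted p = 6.7e-07). Adamts9 was at 85.5, 255, 283 and 300.5 CPM in WT and 24.5, 48.8 and 40.4 CPM in KO22 (log2 fold change -2.41, SE 0.19, edgeR adjusted p = 9.27e-06). WT replicate 1 of series 8995 was far below the other WT libraries for Adamts9, and yet above KO22. Adamts1 and Adamts4 had log2 fold changes of -1.36 (SE 0.15) and -1.31 (SE 0.15), and Adamts20, at 0.933 to 3.02 CPM in WT and at 0, 0.241 and 0 CPM in KO22, had -4.12 (SE 0.77). The call of Adamts1 rested on library series 8995, since its log2 fold change was -1.17 without KO22 replicate 1 and -1.19 without WT replicate 1. In KO26 none of the 6 passed both limits (median -0.39), the 6 differed in sign, and at an unadjusted p under 0.05 Adamts1 was higher and Adamts4 and Adamts5 lower, while DESeq2 called none. Against KO26, 5 of the 6 were lower in KO22 past both limits, where 10.7% of all genes were, Adamts4 being short of the fold limit (-0.86, SE 0.18). The call of Adamts20, which was near 0 in KO22, was lost without KO26 replicate 2 (-2.83).

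The other receptors moved in both directions in KO22. Hmmr, which encodes the hyaluronan-binding and spindle protein RHAMM, was at 66.9, 52.9, 43.1 and 48.4 CPM in WT and 181, 230.3 and 229.8 CPM in KO22 (log2 fold change 2.01, SE 0.16, edgeR adjusted p = 1.18e-05). Markers of cycling cells (Mki67, Top2a, Ccnb1 and Cdk1) were higher with it, all 4 past both limits in KO22, where 11.4% of all genes were higher. These markers summed to 684 to 852 CPM in WT and 1802 to 2906 CPM in KO22. Their part in the Hmmr value was not tested. The scavenger receptor gene Stab1 was higher (1.26, SE 0.18, edgeR adjusted p = 0.000359) and Stab2 lower (-1.21, SE 0.34, edgeR adjusted p = 0.0136), both just past the fold limit. Stab1 lost its call without WT replicate 1 (1.18) or WT replicate 4 (1.13), and Stab2 without WT replicate 2 (-1.195), WT replicate 4 (-1.16) or KO22 replicate 3 (-1.03). Lyve1, the receptor of lymphatic endothelium and some macrophages, had 9, 4, 8 and 12 counts in WT, 11 and 8 in KO26 and 0 in each KO22 library, where a count of 0 allows up to 3.

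Among matrix partners, Acan, which encodes the cartilage hyalectan aggrecan, had 1, 0, 0 and 0 counts in WT, 1 and 0 in KO26, and 338, 337 and 254 in KO22. Tnfaip6 (TSG-6), which transfers the heavy chains of inter-alpha-inhibitor onto hyaluronan, was at 1.23, 0.617, 0.687 and 0.287 CPM in WT and 32.6, 3.66 and 6.6 CPM in KO22 (log2 fold change 3.92, SE 0.40, edgeR adjusted p = 4.21e-05). KO22 replicate 1 was the highest here as for Has1 and Has2. The heavy chain genes Itih2 (-2.02, SE 0.20, edgeR adjusted p = 4.13e-05) and Itih5 (-1.90, SE 0.52, edgeR adjusted p = 0.012) were lower, with Itih2 at 89.3 to 142 CPM in WT and 25.8 to 37.3 CPM in KO22, and the call of Itih5 was lost without KO22 replicate 2 (edgeR adjusted p = 0.0537). None of the 5 tested breakdown genes other than Cemip, Hyal1 and Hyal2 passed both limits. Impg2, the 1 interphotoreceptor matrix gene tested, averaged 4.23 and 2.92 CPM (edgeR adjusted p = 0.0785).

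In KO26, 2 of the 44 genes were higher past both limits and none was lower, against 1.21% and 0.719% of all genes, with a median of 0.03, or 0.02 without Acan, which was at or under 3 counts in both groups. At an unadjusted p under 0.05, 5 were higher and 5 lower, where 20.1% of all genes passed in either direction, and DESeq2 called 2 higher and 0 lower. Hmmr was at 156 and 102 CPM (log2 fold change 1.22, SE 0.20, edgeR adjusted p = 0.0126), beside cycling markers that summed to 1531 to 1706 CPM. Of these markers 2 of 4 were higher past both limits, where 1.21% of all genes were. Without KO26 replicate 1 the Hmmr value was 0.99 (edgeR adjusted p = 0.112), and its call was also lost without WT replicate 3, WT replicate 4, KO22 replicate 1 or KO22 replicate 2 at values of 1.14 to 1.21, and with WT and KO26 fitted alone (1.12). The link protein gene Hapln4 was at 9.09 and 8.44 CPM against 2.03 to 4.02 CPM in WT (log2 fold change 1.54, SE 0.30, edgeR adjusted p = 0.0228). That call was lost without KO26 replicate 1 (1.34, edgeR adjusted p = 0.175) and without each WT library in turn (1.19 to 1.64, lowest edgeR adjusted p = 0.0613).

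Across the 9 mRPE libraries, the genes whose log2 CPM followed each hyaluronan gene most closely were ranked by Pearson's r, as a description that reflects the group differences these libraries share. For Cemip they were Foxp1 (r = 0.995), Ttc28 (0.994) and Pcdhb19 (0.992). For Vcan they were Gins3 and Tex30 (both 0.995), and for Cd44 Lin54, Nufip1 (both 0.994) and Atrip (0.993). Hyal2 was followed by Adgrl1 (0.993), Cdk11b (0.991) and Pak1ip1 (0.990), and Has3 by Myc (0.987), Gm43314 (0.981) and Senp1 (0.980). The values were lower for Has1 (Gm45854 and Ago3, both 0.984, and Star, 0.982), Has2 (Ank2, 0.971, Mafg, 0.961, and Ero1a, 0.956) and Hyal1 (C730045M19Rik, 0.942, Gm22772, 0.934, and Dlc1, 0.933).

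In RPE/choroid the question was whether the same genes differed between WT and Prom1-KO tissue. None of the 8 passed the test in either direction, and the groups overlapped for each, where 14.6% of all genes tested did not overlap (6.71% higher and 7.89% lower). By edgeR's quasi-likelihood test 0.189% of the 24926 genes tested passed both limits, 47 lower and 0 higher. Among the 8 genes 1 had an unadjusted p under 0.05 (Cemip, lower), where 8.3% of all genes did, and DESeq2 called none of them. The median log2 fold change was -0.14 over the 8 genes and 0.01 over all genes.

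Cemip was at 8.65, 12.2 and 4.68 CPM in WT and 3.51, 3.67 and 6.14 CPM in KO. WT replicate 3 fell among the KO libraries, and the log2 fold change of -0.95 (SE 0.37) had an edgeR adjusted p of 0.563. Cd44 was at 53.9, 46.7 and 36.7 CPM in WT and 60.1, 65.8 and 53.0 CPM in KO (log2 fold change 0.38, SE 0.17, edgeR adjusted p = 0.639). Vcan was at 33.1, 18.8 and 23.9 CPM in WT and 54.5, 36.0 and 16.0 CPM in KO (0.49, SE 0.42, edgeR adjusted p = 0.819), with KO replicate 3, the library of highest mitochondrial share, the lowest of the 6. Without KO replicate 3 still none of the 8 passed, with log2 fold changes of -1.26 for Cemip, 0.45 for Cd44 and 0.83 for Vcan (edgeR adjusted p = 0.421, 0.512 and 0.445).

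The synthases were low in the tissue. Has2 was at 6.05, 7.93 and 2.86 CPM in WT and 2.80, 4.29 and 3.28 CPM in KO (log2 fold change -0.69, SE 0.37, edgeR adjusted p = 0.691). Has3 was at 5.98 to 7.26 CPM in WT and 5.37 to 7.46 CPM in KO, and Has1 at 1.84 to 2.13 CPM and 1.91 to 2.62 CPM. Hyal1 was at 7.92, 9.50 and 9.52 CPM in WT and 8.15, 9.79 and 5.24 CPM in KO, and Hyal2 at 4.88, 5.14 and 4.02 CPM in WT and 3.40, 4.20 and 3.75 CPM in KO. For these 4 genes the log2 fold change lay between -0.31 and 0.21. Per kilobase, Cd44 led in both groups (6.75 ± 1.28 CPM per kb in WT and 8.80 ± 0.944 in KO, SD, n = 3) and overlapped with no other gene of the 8. In WT it was followed by Hyal1 (2.38 ± 0.243) and Vcan (1.53 ± 0.437), which did not overlap with each other, and Has2, Has3, Hyal2 and Cemip overlapped below them. Vcan also overlapped with Has2.

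None of the 47 pathway genes tested in RPE/choroid passed both limits (median log2 fold change -0.08). At an unadjusted p under 0.05, 4 were higher and 3 lower, where 8.3% of all genes passed in either direction. The largest were Itih3, an inter-alpha-inhibitor heavy chain gene, higher at 2.46 (SE 0.56, edgeR adjusted p = 0.211), and Bcan, which encodes the hyalectan brevican, lower at -1.81 (SE 0.36, edgeR adjusted p = 0.175), each with no overlap between the groups. Adamts4 and Adamts5 (0.95, SE 0.30, and 0.82, SE 0.23; edgeR adjusted p = 0.428 and 0.348) and Adamts20 and Gfpt2 (-1.04, SE 0.32, and -0.62, SE 0.20; edgeR adjusted p = 0.402 and 0.443) were also among them. DESeq2 called 1 gene lower, Bcan. Marker levels differed between the groups. The 8 RPE markers summed to 957 to 1650 CPM in WT and 153 to 245 CPM in KO, with Rpe65, Lrat and Rdh5 lower past both limits, while Best1 (-0.25) and Otx2 (-0.67) overlapped WT, and in bulk tissue fewer RPE cells and less RNA per cell cannot be told apart. The rod and cone markers summed to 37.6 to 1044 CPM in WT and 18.9 to 501 CPM in KO, the fibroblast markers to 918 to 1910 CPM and 811 to 1861 CPM, and the endothelial markers to 81.5 to 162 CPM and 50.5 to 69.2 CPM, of which none passed both limits. The part of these shifts in the levels of the hyaluronan genes was not tested.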

How the data were processed

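RNA-seq of 9 mRPE and 6 RPE/choroid libraries was analysed. Per the labels and the study's methods, the authors trimmed reads with Trim Galore 0.6.7, aligned them to mm39 with STAR (annotation release not given in the sources used here), took raw counts per gene and left out genes with low counts. The deposited raw counts were used, and the authors' normalized tables were not. The labels name a stranded NEB kit and the study's methods another, and the strand setting of the counting is not given.

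Counts were tested in R 4.3.3 with edgeR 4.0.16 (TMM, quasi-likelihood test, standard errors from its F statistic) on genes reaching 5 counts in 3 or more libraries, with library series as a term in mRPE fits and Benjamini-Hochberg adjustment over all genes tested. KO22 was fitted with WT (7 libraries), and KO26 in all 9. Limits were an adjusted p of 0.05 and an absolute log2 fold change of 1.2. CPM is TMM-scaled, and CPM per kb divides by the union of exons in GENCODE vM39 (GRCm39). Correlations used log2 CPM (prior count 2), and within-series values log2 of CPM plus 0.5. Scripts were tested on simulated counts. Alternatives were DESeq2 1.42.0 (size factors or test), other filters, no fold limit, no series term, other libraries in the fit and each library left out.

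The genes, pathway list and markers were chosen with earlier results of these data known. Named were the 8 genes, Prom1, each list gene past both limits, the most abundant gene of a list group with none, and the 3 best correlated genes, and other genes were named after their values were seen. Prom1 in mRPE was not analysed here. Some genes that this rule would name are not reported here.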

Additional observations from a re-analysis of the deposited data

Results flagged for a closer look

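The effect of KO22 against WT differed from that of KO26 against WT in 4 of the 8 genes, by edgeR's quasi-likelihood test of the difference between the KO lines past both limits. Of all 20737 genes tested, 18.3% passed these limits between the KO lines (7.56% higher in KO22 and 10.7% lower). The KO22 effect minus the KO26 effect, on the log2 scale, was -5.28 for Cemip, 2.23 for Has1, 1.63 for Vcan and 1.33 for Hyal2. Leaving out 1 library at a time, the Hyal2 value ranged from 0.73 to 2.02, so its call depended on single libraries. Within series 8995 and 9262 the differences were 0.38 and 2.06 for Hyal2, and 2.96 and 1.46 for Has1. For Has1 the KO lines lay on opposite sides of WT, with each KO22 library above and each KO26 library below the 4 WT libraries. KO26 rests on 2 libraries of 1 line.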

How the results depend on the processing

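Over 464 values of the 8 genes under the alternatives, 436 kept their direction and their side of the limits, 13 passed them newly, 6 no longer passed and 9 changed sign. The alternative without a fold limit reused the main fits. Its values are among the 464 and could pass newly, but could not change sign or lose a call. Without a fold limit, KO22 against WT called 5506 genes higher and 5331 lower (26.9% and 26.1% of all tested). Of the 8 hyaluronan genes 6 were higher and 1 lower, and of 44 pathway genes 18 were higher and 15 lower. KO26 against WT called 490 and 235 genes (2.36% and 1.13%). There 1 of the 8 was higher and 1 lower, and 2 pathway genes were higher and 0 lower. KO22 against KO26 called 3388 and 3744 genes (16.3% and 18.1%). Of the 8 genes 5 were higher and 1 lower, and 18 pathway genes were higher and 11 lower. For KO26, no series term gave 123 genes higher and 71 lower, DESeq2 gave 269 lower, and WT and KO26 alone gave 408 and 410, with 1 pathway gene higher. The KO lines alone gave 988 higher and 1348 lower. In RPE/choroid DESeq2 gave 84 genes higher and 189 lower and 1 pathway gene lower, and edgeR's filter, or leaving out mitochondrial genes (chosen after seeing the data), gave 1 higher.

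Leaving out 1 library at a time, members lower numbered 1 to 2 for KO22, 0 to 1 for KO26 and 1 to 2 between the KO lines, and members higher 3 to 4 for KO22 and 2 to 4 between the KO lines. Genes called for KO26 ranged from 68 to 471 higher and 32 to 407 lower, with 0 to 2 pathway genes higher, and in RPE/choroid from 0 to 5 higher and 9 to 37 lower. Changes of sign were all in values that did not pass the test. In KO26 these were Has2 (range -0.21 to 0.85, negative without KO26 replicate 2), Has3 (-0.037 to 0.21, negative without KO26 replicate 1), Hyal1 (-0.46 to 0.65, negative without KO26 replicate 2 and, at -0.33, without WT replicate 1) and Hyal2 (-0.50 to 0.79, negative without KO26 replicate 1). Between the KO lines it was Has2 (-0.14 to 0.92, negative without KO26 replicate 1 and, at -0.13, without KO22 replicate 1), and in RPE/choroid Has3 (-0.23 to 0.028, positive without KO replicate 2 and, at 0.017, without WT replicate 2). Where a group was left with 1 library, that library was assumed to vary like the others. The cause of these changes was not tested. No paired analysis was possible because the labels give no replicate numbers shared between groups. The low counts of Hyal1 in mRPE cells limit its precision.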
